A study of Mus musculus with 2 samples.

Results

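The ErbB receptor genes Egfr, Erbb2, Erbb3 and Erbb4 and the ligand genes Egf, Hbegf, Nrg1 and Nrg3 were described in nuclei of mouse kidney at the embryonic stage E18.5 and the postnatal stage P3. They are 8 of the 32285 genes in each count table, and they were selected by their symbols from a list that had been proposed with levels by nuclei type and age in these data already known. The values below are therefore a description. Each age is represented by 1 library of nuclei from kidneys that were pooled from males and females. The E18.5 mice carried Mycf/f;Mycnf/f alleles without Cre on a mixed background. The P3 mice were wild type, on a C57BL/6J background by the labels, but on a mixed one by the methods of the study. The libraries also name different releases of the counting software, so effects of age, genotype, strain, preparation and software cannot be told apart, and a single library per age allows no test between ages.

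ErbB receptors are tyrosine kinases of the cell surface that act as dimers. EGF-family ligands are made as membrane-anchored precursors that are shed by proteases. EGF binds the EGF receptor, HB-EGF binds the EGF receptor and ErbB4, neuregulin 1 binds ErbB3 and ErbB4, and neuregulin 3 binds ErbB4. ErbB2 has no known ligand of its own and ErbB3 has little kinase activity, so both signal with a partner. In the adult kidney, EGF is known as a product of the thick ascending limb and the distal convoluted tubule, where it affects magnesium uptake through the channel Trpm6.

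Quality limits left 21270 nuclei at E18.5 and 11765 at P3, with medians of 3132.5 and 4534 unique molecular identifiers (UMIs) per nucleus. The libraries shared 69 barcode sequences. Scrublet called 16.6% and 17.4% of these nuclei doublets, which were kept in the sums. Each library was clustered without any of 62 genes of the ErbB pathway, and 14 classes at E18.5 and 12 at P3 were named from markers outside that list, of which 3 of 8 in glia-like nuclei to 10 of 10 in several other classes were raised. Clusters without a name held 42.1% of nuclei at E18.5 and 36.6% at P3. Levels of a class are UMIs of a gene per 1000000 UMIs of the class (CPM), with 95% exact Poisson intervals in brackets. Ratios of levels carry exact conditional binomial intervals and shares exact binomial ones. All of them cover counting error only, because nuclei of 1 library are not replicates. Intervals of ratios between classes or clusters chosen as highest, next or lowest do not account for that choice.

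Erbb4, the receptor of the neuregulins and of HB-EGF, was highest in loop of Henle-like nuclei at both ages. The loop class reached 9170 CPM [8970–9374] at E18.5 and 12730 CPM at P3. At E18.5 all 236 loop nuclei held an Erbb4 UMI, and after thinning every nucleus to 1000 UMIs the share was 99.1% at E18.5 and 96.1% at P3. The order below the loop changed between the libraries.

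At E18.5, proximal tubule-like nuclei came next at 3523 CPM, followed by distal tubule-like nuclei at 2531 CPM and ureteric epithelium-like nuclei at 1439 CPM. The loop level was 2.60 times (2.54–2.67) the proximal tubule level. The next class after the ureteric epithelium was mural-like at 323 CPM, a step of 4.45 times. At P3 the class below the loop was the distal tubule at 4128 CPM, and the loop level was 3.08 times (3.001–3.169) that level. Ureteric epithelium followed at 2962 CPM, proximal tubule at 1952 CPM, intercalated-like nuclei at 1854 CPM and early nephron-like nuclei at 1717 CPM. Proximal tubule and intercalated levels did not differ beyond counting error, with a ratio of 1.05 (0.98–1.13). The highest 4 classes thus were the same tubule epithelia in both libraries, in another order.

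Leukocyte-like nuclei were set beside the other classes as one not known for Erbb4. They held 155 CPM [118–200] at E18.5 and 844 CPM at P3, and the thinned shares of leukocyte nuclei with a UMI were 13.2% and 49.5%, at median depths of 2300.5 and 2555 UMIs. Nephron progenitor-like nuclei (134 CPM) and urothelium-like nuclei (126 CPM) at E18.5 lay at or below that level. At P3 so did mural-like (539 CPM), endothelium-like (507 CPM), interstitium-like (429 CPM) and urothelium-like nuclei (278 CPM). Levels at or below that of leukocyte-like nuclei were not read as Erbb4 of the class, and where their UMIs came from was not tested. A single P3 leukocyte nucleus held 95 of the 474 Erbb4 UMIs of its class, and 12.1% of the P3 leukocyte-like nuclei were called doublets, against 2.5% at E18.5. The part of doublets or of free RNA in these levels was not tested.

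Erbb4 also differed inside classes. At E18.5 a loop cluster of 195 nuclei led by Slc12a1, the sodium-potassium-chloride cotransporter of the thick ascending limb, had 9889 CPM, and a loop cluster of 41 nuclei led by Pappa2 had 5214 CPM. The 4 loop clusters of P3 ran from 5351 CPM, in 98 nuclei led by Sgcz, Ranbp3l and Prox1, to 16415 CPM, in 216 nuclei led by Slc12a1, Kng2 and Ptger3. Clusters without a class name held 57.6% of all Erbb4 UMIs at E18.5, in 47.1% of the UMIs of the library. The highest of them, 1107 nuclei led by Nrcam, Sim2 and Spon1, had 6298 CPM. It lay between the named loop clusters, and its markers of early nephron and loop did not give it a single name. Within E18.5 proximal tubule, a cluster of 1386 nuclei led by Grid1 and Stxbp5l had 4334 CPM, which was 2.95 times the 1471 CPM of a cluster of 503 nuclei led by Slc22a27, Slc7a12 and Aadat. An unnamed P3 cluster of 227 nuclei was also led by Grid1 and Stxbp5l and reached 10451 CPM.

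**Figure D1:**
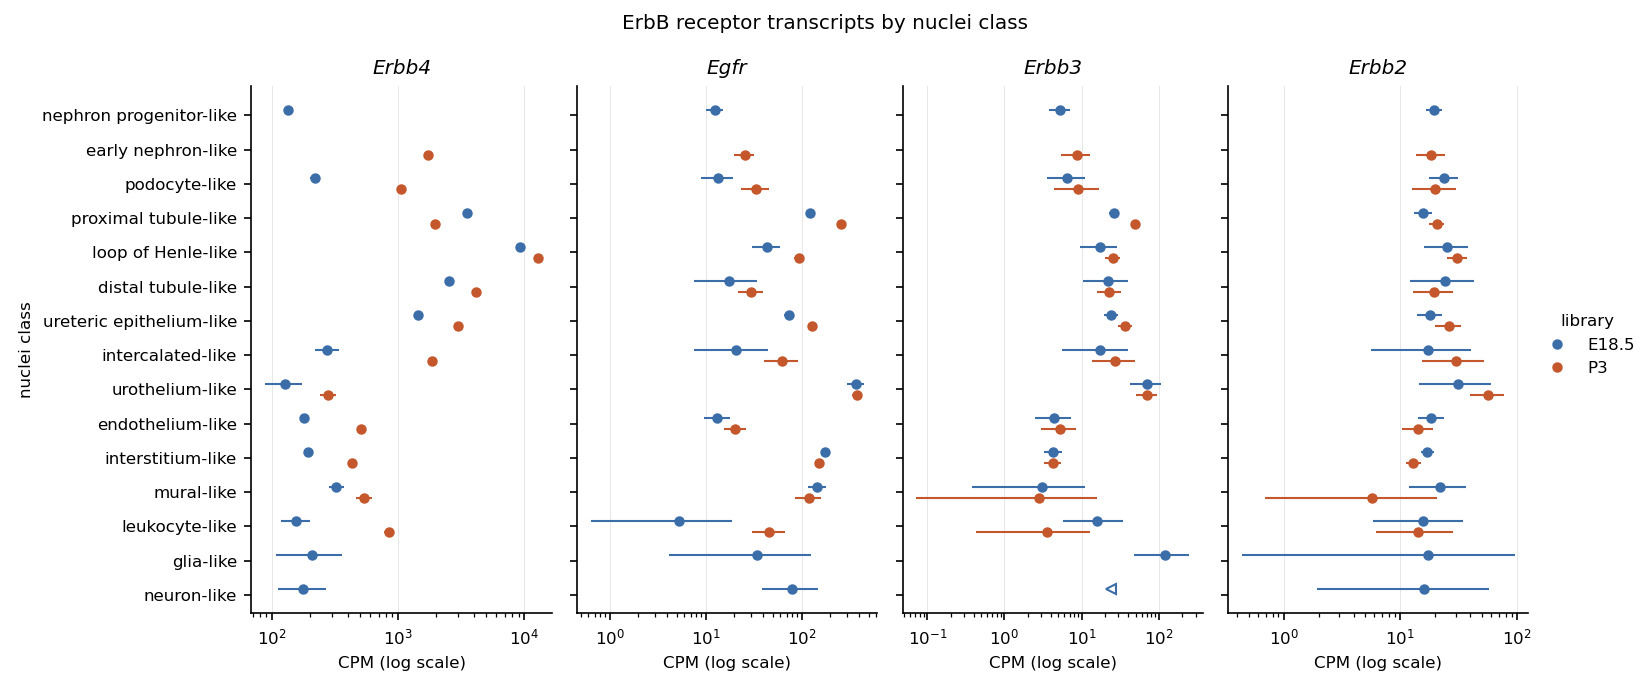
CPM of each receptor gene (log scale, horizontal) in every named class (vertical) of the E18.5 and the P3 library, with 95% exact Poisson intervals that cover counting error only. The open triangle marks the level that 3 UMIs would give in a class with none. Among the classes, Erbb4 is highest in loop of Henle-like nuclei in both libraries, while Egfr is highest in urothelium-like nuclei, at 366 and 379 CPM.

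Egfr, the receptor of EGF and HB-EGF, was spread over epithelium and stroma. Urothelium-like nuclei had the highest level of the named classes at both ages, 366 CPM [299–443] at E18.5 and 379 CPM [333–429] at P3. At E18.5 they were followed by interstitium-like nuclei at 176 CPM, mural-like nuclei at 146 CPM and proximal tubule-like nuclei at 123 CPM. The urothelium level was 2.08 times (1.70–2.53) that of the interstitium, which in turn did not differ from that of mural nuclei beyond counting error, at 1.20 times (0.98–1.49). The urothelium did not lead at E18.5 when markers had to be raised 3 times to name a class, with a log2 ratio of −0.51 to the next class. At P3 the second class was proximal tubule at 259 CPM [249–270]. The urothelium there was 1.46 times (1.28–1.67) the proximal tubule, and the proximal tubule was 1.69 times the interstitium at 153 CPM. Leukocyte-like nuclei had 5.26 CPM from 2 UMIs at E18.5 and 46.3 CPM at P3, with thinned shares of 0.629% and 3.57%. Podocyte-like (13.5 and 33.5 CPM), distal tubule-like (17.6 and 29.8 CPM) and endothelium-like nuclei (13.3 and 20.4 CPM) were low in both libraries.

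The interstitium held 34.5% of the Egfr UMIs of E18.5, more than any other named class, in 17.0% of the UMIs of the library. At P3 it held 23.6% of the Egfr UMIs, close to its 20.2% of all UMIs. Proximal tubule held 25.6% there in 12.9% of all UMIs. Egfr was uneven within the interstitium. A cluster of 132 nuclei at E18.5 led by Ebf2, Sntg1 and Col6a6 had 523 CPM, 3.55 times the 147 CPM of the largest interstitial cluster. At P3 the highest cluster named interstitium-like, 52 nuclei, was again led by Ebf2 and had 445 CPM, 4.14 times (3.39–5.01) the 108 CPM of the lowest. Car3, Pparg and Plin1 were also among its leading genes. Only 5 interstitium markers were raised in it (Foxd1, Col1a1, Col1a2, Col3a1 and Dcn), without Pdgfra, Meis1, Tcf21 or Pdgfrb. Its place in the kidney interstitium is therefore uncertain. In both libraries an Ebf2-led cluster had the highest Egfr of the clusters named interstitium-like, and a higher level than the urothelium-like cluster. The ratio to the urothelium was 1.43 (1.13–1.81) at E18.5. At P3 it was 1.17 (0.94–1.47), which is not beyond counting error. In E18.5 proximal tubule, the order of clusters was opposite for the receptors: the cluster led by Slc22a27 had 242 CPM of Egfr against 76.0 CPM in the cluster led by Grid1, a ratio of 3.18, whereas its Erbb4 was the lower. In the P3 loop, the cluster led by Sgcz and Prox1 had 299 CPM of Egfr and that led by Casr had 20.1 CPM, a ratio of 14.9 (7.38–35.2).

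Erbb3, the kinase-impaired neuregulin receptor, had few UMIs and was higher in some epithelial classes than in others. At E18.5 glia-like nuclei had 120 CPM [48.4–248] from 7 UMIs in 21 nuclei, 42.9% of which were called doublets. Glia of the Schwann lineage are known to depend on Erbb3. Urothelium-like nuclei had 69.7 CPM [42.6–108], which the glia-like level did not exceed beyond counting error at 1.73 times (0.62–4.25), and stood at 70.3 CPM [51.5–93.8] at P3, where they led and no glia-like class was named. Proximal tubule had 26.3 CPM at E18.5 and 48.9 CPM at P3, and ureteric epithelium 24.0 and 36.9 CPM. Podocyte-like (6.51 and 9.06 CPM), endothelium-like (4.44 and 5.27 CPM), interstitium-like (4.25 CPM in each library) and mural-like nuclei (3.11 and 2.84 CPM) were low in both libraries. The neuron-like class had 0 UMIs, where 3 UMIs would have given 24.1 CPM. In leukocyte-like nuclei 6 UMIs gave 15.8 CPM at E18.5 and 2 UMIs gave 3.56 CPM at P3. The E18.5 loop, at 17.2 CPM, did not exceed the leukocyte level beyond counting error, at 1.09 times (0.40–3.43). The thinned share of proximal tubule nuclei with Erbb3 was 1.91% at E18.5 and 5.49% at P3, and that of leukocyte nuclei 0.629% and 0.

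Erbb2, the ligandless partner, showed the least contrast between classes. At E18.5 its levels ran from 15.7 CPM in proximal tubule to 31.4 CPM [14.4–59.6] in urothelium, which rested on 9 UMIs, and no class differed from its neighbour in the order beyond counting error. At P3 urothelium had 56.6 CPM [39.8–77.9], loop 30.9 CPM and interstitium 13.0 CPM, and mural nuclei came last at 5.67 CPM from 2 UMIs. Only 1 of 11 neighbouring pairs of classes differed at P3. Neighbours in such an order have the closest levels, so these counts do not show whether classes further apart differed. After thinning, the log2 ratio of urothelium to the next class was −0.060, so that the urothelium no longer led. Of the 4 P3 loop clusters, the highest, led by Slc12a1, Kng2 and Ptger3, had 41.8 CPM and the lowest, led by Sim2, had 21.1 CPM. They were 1.98 times (1.21–3.30) apart, an interval that does not account for the choice of this pair. Over all nuclei the levels of the libraries were 18.3 and 19.0 CPM.

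Since the receptors act as dimers, nuclei with transcripts of both receptors of a pair were counted after thinning. The counts were set beside the number expected if detection were independent within each cluster, in classes where both receptors reached 20 CPM. For Egfr with Erbb4, 258 nuclei were found and 273.9 expected at E18.5, and 429 found and 436.8 expected at P3. For Erbb3 with Erbb4 the numbers were 48 and 44.6 at E18.5, and 85 and 85.6 at P3. For Erbb2 with Erbb4 they were 10 and 10.7, and 41 and 41.0. Most of these classes could not have shown a difference. In the E18.5 loop 233 of 235 nuclei held Erbb4, which fixes the ratio near 1, and elsewhere few nuclei were expected. The most precise ratios were those of Egfr with Erbb4 in the interstitium, at 0.99 (0.81–1.20) and 1.03 (0.87–1.21), and in proximal tubule, at 0.89 (0.72–1.08) and 0.93 (0.79–1.07). In proximal tubule 97 nuclei were found and 109.4 expected at E18.5, and 175 found and 189.2 expected at P3. These intervals are Poisson ones of the number found over the expected number. They ignore that the numbers of nuclei with each receptor are fixed, so they are too wide to show whether detection was independent. Pairs without Erbb4 had at most 17 nuclei in a library.

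Nrg3, the ligand of ErbB4, led in neuron-like nuclei at E18.5, with 3064 CPM [2764–3387] from 382 UMIs in 24 nuclei, and next in ureteric epithelium-like nuclei, with 997 CPM. The neuron level was 3.07 times (2.76–3.41) the ureteric level, and the ureteric level was 18.1 times (16.35–20.05) that of the third class, proximal tubule, at 55.1 CPM. The ureteric epithelium held 42.1% of all Nrg3 UMIs of E18.5 in 4.90% of the UMIs of the library. At P3 ureteric epithelium led with 502 CPM, 1.36 times (1.23–1.51) the 370 CPM of distal tubule, and no neuron-like class was named. The P3 distal tubule level was 7.74 times the loop level of 47.7 CPM. Leukocyte-like nuclei had 7.88 CPM at E18.5 and 21.4 CPM at P3, and their thinned shares were 0 and 2.04%, against 37.9% and 20.8% in ureteric epithelium.

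Nrg3 was also divided within the ureteric epithelium. At E18.5 a cluster of 570 nuclei led by Nrg3 itself, Grik2 and 9230110F11Rik had 1773 CPM, 9.76 times (8.72–10.9) the 182 CPM of the 563 nuclei led by Kcnh7 and Slc14a2, a urea transporter of the inner medullary collecting duct. At P3 the 273 nuclei led by 9230110F11Rik and Slco4c1 had 837 CPM, 12.8 times (10.1–16.5) the 65.4 CPM of the 154 nuclei led by Slc14a2 and Mgat4c. The Slc14a2 clusters were thus the low ones in both libraries. The P3 distal tubule was divided further: 155 nuclei led by Plppr1, with Scnn1b of the epithelial sodium channel among the first 3 genes, had 645 CPM, and 111 nuclei led by Slc12a3, the thiazide-sensitive cotransporter, and Calb1 had 9.60 CPM. That ratio was 67.2 (30.7–184). The annotated genes Nrg3os and Gm20642 overlap Nrg3, and Nrg3os showed the same leading classes (233 CPM in neuron-like and 82.0 CPM in ureteric nuclei at E18.5, 34.1 CPM in ureteric nuclei at P3). Whether the counting used strand is not stated, so reads of Nrg3 and of antisense transcripts cannot be told apart.

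Nrg1, the ligand of ErbB3 and ErbB4, had its highest E18.5 level in neuron-like nuclei, 225 CPM [149–325] from 28 UMIs. Loop of Henle-like nuclei had 138 CPM [114–165], proximal tubule 109 CPM, nephron progenitors 78.1 CPM and ureteric epithelium 73.6 CPM. At P3 proximal tubule with 169 CPM [161–178] and loop with 148 CPM [136–162] were the highest classes. In both libraries loop and proximal tubule therefore led among the classes found at both ages. Distal tubule had 43.9 CPM at E18.5 and 50.6 CPM at P3. The interstitium was low, with 9.49 CPM at E18.5 and 17.0 CPM at P3. Leukocyte-like nuclei had 15.8 and 21.4 CPM.

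The clusters of the tubules differed more in Nrg1 than the classes did. In the P3 loop, the Sgcz- and Prox1-led cluster with the highest Egfr also had the highest Nrg1, 363 CPM, and the Casr-led cluster had 12.5 CPM, a ratio of 28.9 (12.2–90.1). In E18.5 proximal tubule the Slc22a27-led cluster had 218 CPM and the Grid1-led cluster 65.4 CPM, a ratio of 3.34 (2.90–3.84). Podocyte-like clusters led by Ptpro, Nebl and Ndnf had 73.7 CPM at E18.5 and 73.3 CPM at P3, and those led by Magi2 and Gm29266 had 11.5 and 17.1 CPM. In ureteric epithelium the clusters with more Nrg3 also had more Nrg1, 100 CPM against 45.4 CPM at E18.5 and 83.2 CPM against 18.7 CPM at P3. An unnamed P3 cluster of 597 nuclei led by Eya1 and Bmper had 245 CPM.

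Egf was found in podocyte-like nuclei at both ages and in the loop of Henle at P3. The podocyte class had 87.0 CPM [74.9–100] at E18.5, from 187 UMIs in 108 of 697 nuclei (15.5%), and 129 CPM [108–152] at P3, where 26.4% of nuclei held a UMI. Its thinned shares were 5.60% and 7.93%. The next E18.5 class, neuron-like nuclei, had 24.1 CPM from 3 UMIs, and the loop had 4.59 CPM from 4 UMIs, below the 10.5 CPM of leukocyte-like nuclei. At P3 the loop had 73.4 CPM [64.4–83.3] from 240 UMIs in 66 nuclei, of which 6 nuclei held 132 UMIs and 42 held 1 each. Without the nucleus with 64 UMIs it had 54.0 CPM [46.3–62.6]. With all nuclei, the podocyte level was 1.75 times (1.41–2.17) the loop level. P3 podocyte-like nuclei with 36, 50, 66 and 89 Slc12a1 UMIs held 5, 11, 1 and 2 of the 142 Egf UMIs of their class. Of podocyte-like nuclei, 9.69% at P3 and 2.73% at E18.5 were called doublets. Proximal tubule had 9.17 CPM at E18.5 and 29.6 CPM at P3. Leukocyte-like nuclei of P3 had 53.4 CPM, but 25 of their 30 UMIs came from 1 nucleus that also held 144 Slc12a1 UMIs, and they had 9.09 CPM without it.

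Within the P3 loop, Egf was concentrated in the cluster led by Casr and Slc12a1. These 75 nuclei had 344 CPM [289–406], 4.25 times (3.22–5.64) the 80.8 CPM of the cluster led by Slc12a1, Kng2 and Ptger3 and 35.1 times (19.8–67.5) the 9.80 CPM of the cluster led by Sim2. The level of the Casr-led cluster was 188 CPM [148–237] without the nucleus with 64 UMIs. The same Casr-led cluster had the lowest Egfr and Nrg1 of the loop clusters. Podocyte Egf differed between clusters as well, in the order opposite to Nrg1. The Magi2-led clusters had 114 CPM at E18.5 and 186 CPM at P3, and the Ptpro-led ones 15.4 and 63.6 CPM.

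Single nuclei showed the same contrast without reference to clusters. At P3, 14 nuclei held at least 10 Egf UMIs, and 13 of them held 41 to 189 Slc12a1 UMIs. These 14 nuclei contributed 17.9% of the Egf UMIs of the library, and the highest held 64. At E18.5 only 1 nucleus, of the podocyte-like class and with 0 Slc12a1 UMIs, reached 10 Egf UMIs. Of the 14 P3 nuclei, 6 were loop-like and 5 were unnamed nuclei that were called doublets. A podocyte-like one with 50 Slc12a1 UMIs was called a doublet as well. The 14 nuclei held 4243 to 27578 UMIs, beside a P3 median of 4534, and a limit in raw UMIs favors deep nuclei. Nuclei with at least 20 Slc12a1 UMIs had 9.53 CPM of Egf [6.11–14.2] at E18.5 (481 nuclei, 24 UMIs) and 62.4 CPM [56.9–68.2] at P3 (727 nuclei, 477 UMIs). Their median depths were 4376 and 7026 UMIs. Without called doublets the levels were 7.19 CPM [3.45–13.2] and 98.7 CPM [87.3–111].

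**Figure D2:**
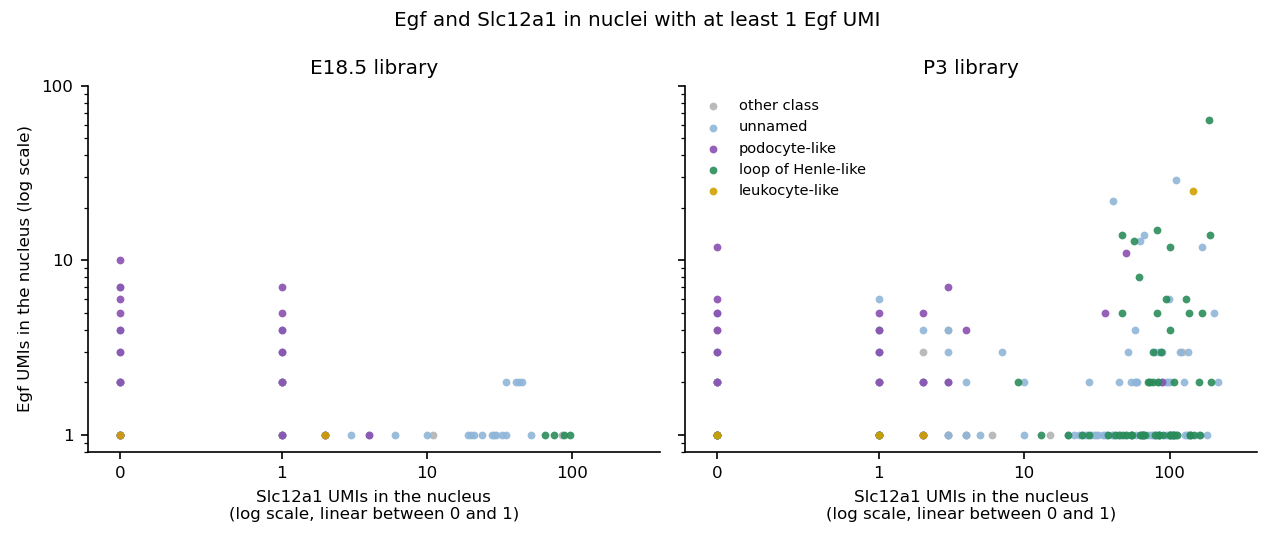
Egf UMIs (vertical, log scale) against Slc12a1 UMIs (horizontal, log scale that is linear between 0 and 1) in every nucleus with at least 1 Egf UMI, colored by class, for E18.5 (left) and P3 (right). Nuclei with 10 or more Egf UMIs and high Slc12a1 appear in the P3 library only, 13 in all, and podocyte-like nuclei with little or no Slc12a1 carry several Egf UMIs in both.

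Hbegf, a ligand of the EGF receptor and ErbB4, was highest in proximal tubule-like nuclei in both libraries, at 31.2 CPM [27.3–35.4] and 52.8 CPM [48.2–57.8]. At E18.5 mural-like (24.9 CPM from 16 UMIs) and endothelium-like nuclei (19.8 CPM) followed, and the proximal tubule level was not beyond counting error of the mural one, at 1.25 times (0.76–2.23). At P3 urothelium-like nuclei came second with 30.6 CPM [18.7–47.2]. Nephron progenitors, the class set beside Hbegf as one not known for it, had 6.28 CPM at E18.5 and were not named at P3. Thinned shares in proximal tubule were 2.87% at E18.5 and 4.87% at P3, against 0.398% in progenitors. Within E18.5 proximal tubule the Slc22a27-led cluster had 61.1 CPM, 3.15 times (2.42–4.11) the 19.4 CPM of the Grid1-led cluster. The proximal tubule cluster with more Hbegf at E18.5 was thus also the one with more Egfr, Erbb3 and Nrg1 and less Erbb4. At P3 the cluster led by Aadat and Slc7a12 had 34.7 CPM of Hbegf, below the 59.0 CPM of the cluster led by Slc5a12.

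**Figure D3:**
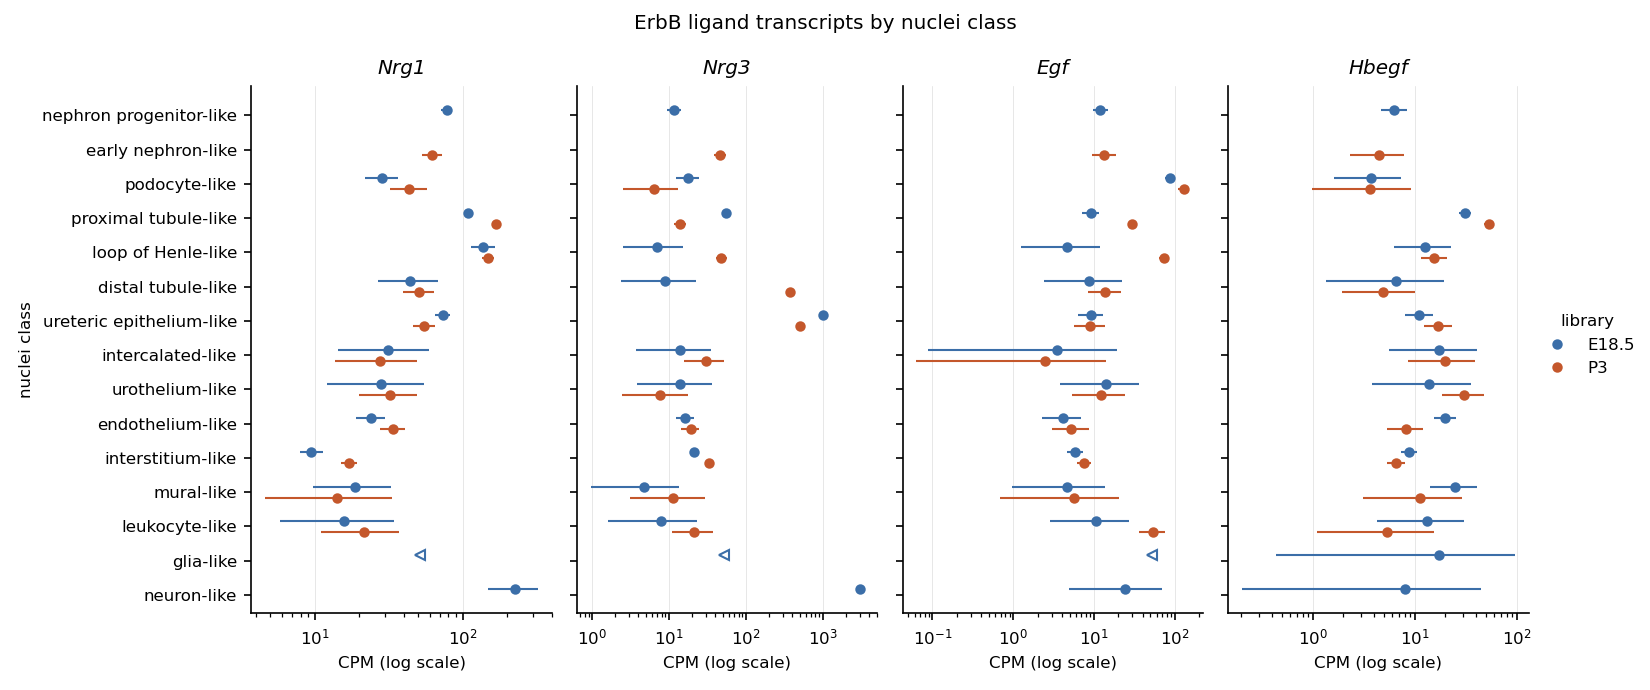
CPM of each ligand gene (log scale, horizontal) in every named class (vertical) of both libraries, with 95% exact Poisson intervals that cover counting error only. Open triangles mark the level that 3 UMIs would give in a class with none. Nrg3 stands out in neuron-like and ureteric epithelium-like nuclei, and Egf in podocyte-like nuclei at both ages and in the loop at P3.

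**Figure D4:**
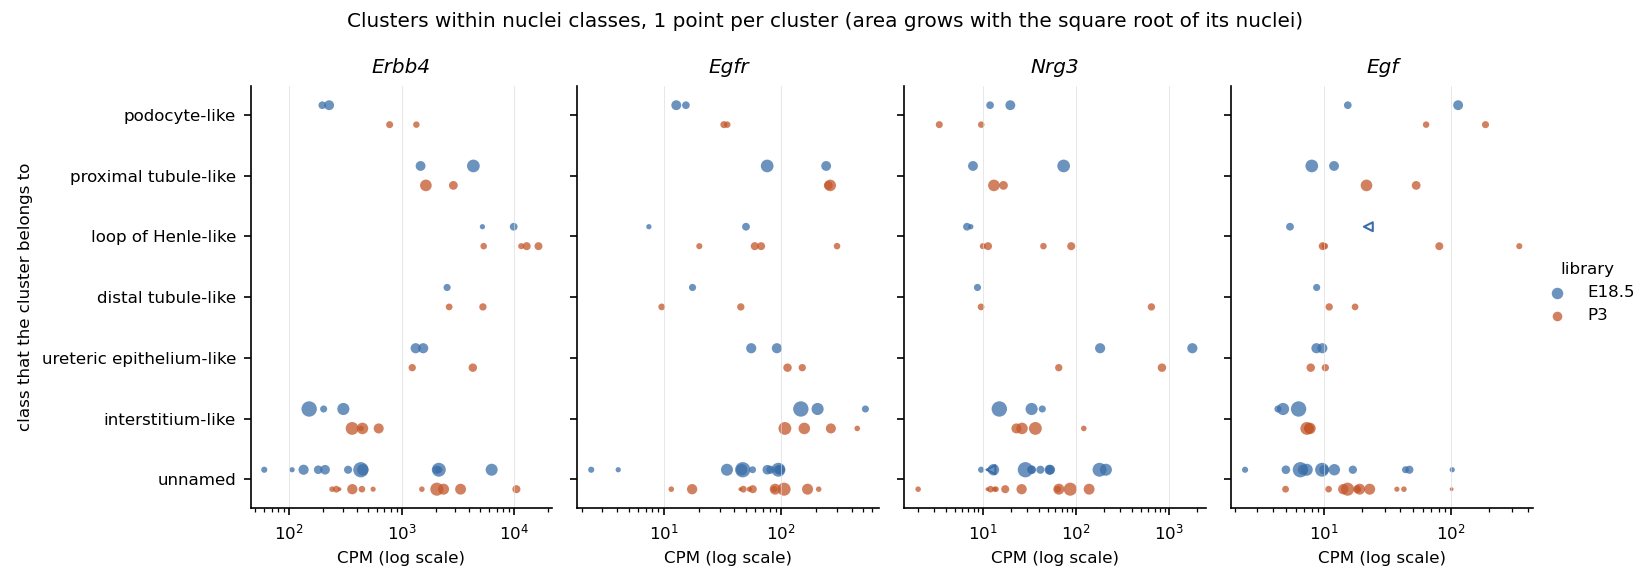
CPM (log scale) of Erbb4, Egfr, Nrg3 and Egf in each cluster, grouped by the class the cluster was named for, with point area growing with the square root of the number of nuclei. The open triangle marks the level of 3 UMIs in a cluster with none. Clusters of the same class lie far apart for Nrg3 in the ureteric epithelium and the P3 distal tubule, and for Egf in the P3 loop.

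A leading class at least 2 times the next named class was found for 4 of 8 members at E18.5 (Egf, Nrg3, Egfr and Erbb4; 3 when markers had to be raised 3 times) and for 1 of 8 at P3 (Erbb4). Over all genes with at least 10 CPM in a class, 24.5% met this at E18.5 and 23.7% at P3. The members were proposed with class levels known, so their counts are a description beside these shares. The E18.5 count included 2 members, Egf and Nrg3, for which the 24 neuron-like nuclei were either the leading or the next class.

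Over all nuclei, none of the 8 members differed by 2-fold between the libraries. Among 17431 genes with at least 1 CPM, 4.80% were at least 2-fold higher at P3 and 9.93% at least 2-fold higher at E18.5, and the median log2 ratio of P3 to E18.5 was −0.12. Erbb4 had 1420 CPM at E18.5 and 2388 CPM at P3, a ratio of 1.68 (1.67–1.69). The ratio was 1.78 (1.64–1.93) for Egf, 1.72 (1.58–1.87) for Erbb3, 1.54 for Nrg1, 1.504 for Egfr and 1.24 (1.14–1.34) for Hbegf. Erbb2 did not differ beyond counting error, at 1.04 (0.96–1.12). Nrg3 was lower at P3, 74.4 against 116 CPM, a ratio of 0.64. These ratios combine levels within classes with the shares of the classes. Loop of Henle-like nuclei were 1.11% of nuclei at E18.5 and 5.21% at P3, and held 7.28% and 24.9% of the Erbb4 UMIs. With the classes named at both ages weighted equally, 7 of the 8 ratios moved beyond counting error. The part of the mix of classes in the ratios over all nuclei was not tested. Among genes with at least 10 CPM in either library, longer introns went with higher P3 levels. In quartiles of 2886 genes, the median log2 ratio was −0.52, −0.23, −0.03 and 0.21 from the shortest to the longest introns. Erbb4, Egfr, Nrg1, Nrg3 and Egf were in the longest quartile, Erbb2 and Erbb3 in the second and Hbegf in the first. The matrices name different Cell Ranger releases, and the part of this in the ratios was not tested.

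**Figure D5:**
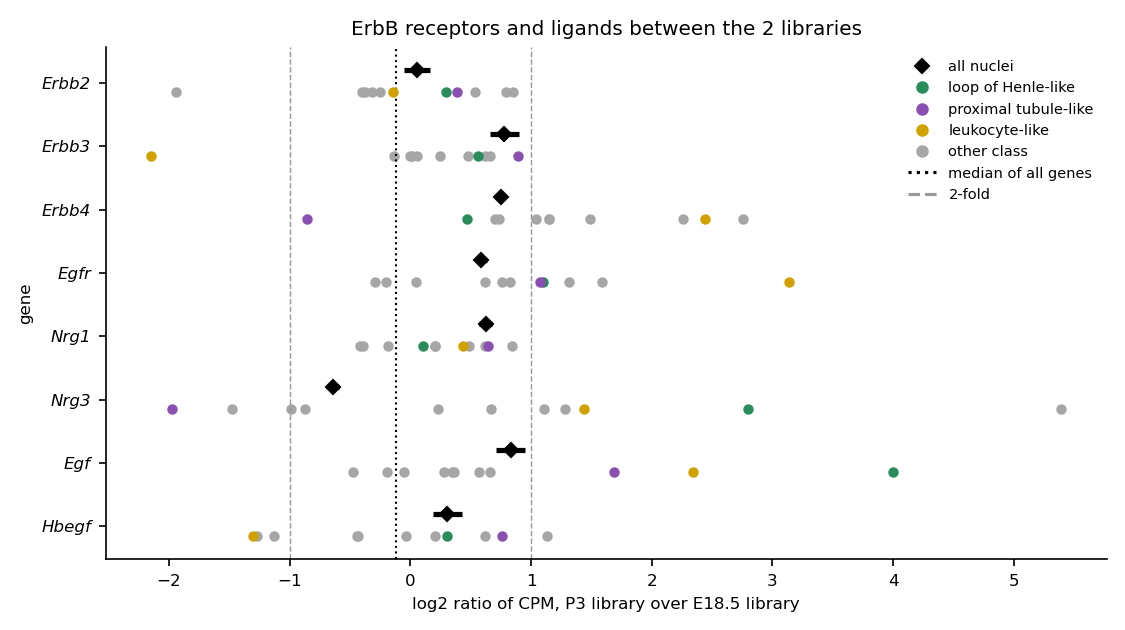
Log2 ratio of CPM in the P3 library over the E18.5 library for each member, over all nuclei (black diamonds, with 95% exact conditional binomial intervals for counting error) and within each class named at both ages (circles). The dotted line is the median of all genes at −0.12 and the dashed lines mark 2-fold. No diamond lies beyond 2-fold, whereas Egf in the loop and Nrg3 in the distal tubule lie far to the right.

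Within classes the ratios were wider. Egf in the loop was 16.0 times (6.17–59.2) higher at P3, or 15.6 times without the nucleus with the most Egf UMIs in each library. Clusters with Slc12a1 among their 10 leading genes were both loop clusters of E18.5 and 2 of the 4 of P3, and their Egf levels were 4.59 and 153 CPM. Egf in proximal tubule was 3.23 times higher. Egfr in proximal tubule was 2.11 times higher, at 123 and 259 CPM, and Hbegf, Erbb3 and Nrg1 in that class were 1.70, 1.86 and 1.56 times higher, where the median log2 ratio of all genes was −0.25. With 20 neighbours in the graph these ratios were 1.46 for Egfr, 1.12 for Hbegf, 1.31 for Erbb3 and 1.09 for Nrg1. Erbb4 in proximal tubule was lower at P3, with a ratio of 0.55 (0.54–0.56), and of 0.57 under Leiden clustering and 0.75 with 20 neighbours. The Grid1-led cluster held most E18.5 nuclei of that class and had no named counterpart at P3. The Slc22a27-led cluster alone had 1471 CPM of Erbb4, below the 1952 CPM of the P3 class. Its Egfr was 242 CPM and its Erbb3 37.9 CPM, beside 259 and 48.9 CPM in the P3 class. Hbegf and Nrg1 in that cluster were above the P3 class, at 61.1 against 52.8 CPM and 218 against 169 CPM. Egf in that cluster was below the 29.6 CPM of the P3 class. Its leading genes Aadat, Slc7a12 and Slco1a6 also led a P3 cluster of the class. That P3 cluster had 2878 CPM of Erbb4 and 34.7 CPM of Hbegf, both opposite in direction to the class ratios. Its Egfr (252 CPM), Erbb3 (53.2 CPM), Nrg1 (243 CPM) and Egf (53.2 CPM) lay above those of the Slc22a27-led cluster, as in the class. The other P3 cluster, led by Slc5a12 and Slc34a1, had 1640 CPM of Erbb4 and 59.0 CPM of Hbegf. The part of the mix of clusters in the proximal tubule ratios was not tested.

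Erbb4 was higher at P3 in every other class named at both ages, from 1.39 times in the loop and 1.63 times in distal tubule to 2.06 times in ureteric epithelium, 4.80 times in podocytes and 6.78 times in intercalated-like nuclei. It was also 5.44 times (4.15–7.26) higher in leukocyte-like nuclei, the class set beside the others as one not known for Erbb4. Whether the other ratios share in that rise was not tested. The ratio in the loop was 2.27 under Leiden clustering. The P3 loop class held a cluster led by Sim2 and Nrcam, whereas the Nrcam- and Sim2-led cluster of E18.5 was unnamed and outside its loop class. That in podocytes was 3.21 without called doublets and 1.64 when doublet-rich podocyte clusters were named as well.

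Nrg3 was 42.1 times (16.3–155) higher in P3 distal tubule, from 4 UMIs at E18.5 and 533 at P3, and lower in ureteric epithelium, at 0.50 times (0.47–0.54). The E18.5 distal tubule was a single cluster of 140 nuclei, and the P3 class held the Plppr1-led cluster that carried nearly all of its Nrg3. With 20 neighbours in the graph the log2 ratio in the distal tubule was −1.08. Nrg3 was 6.94 times higher in the P3 loop, but the log2 ratio there was −2.48 under Leiden clustering. The highest Nrg3 of the P3 loop clusters, 89.0 CPM, was in the cluster led by Sim2, Nrcam and Pappa2. At E18.5 the cluster led by Nrcam, Sim2 and Spon1 was unnamed and outside the loop class. Its Nrg3 was 1.15 times (1.01–1.32) that of the Kcnh7-led ureteric cluster. The loop classes of the libraries thus held unlike clusters. The Nrg3 ratio of 0.26 in proximal tubule was 0.95 under Leiden clustering. The direction of Nrg3 in distal tubule and loop, and the size of its ratio in proximal tubule, thus depended on how the clusters were drawn.

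Genes whose levels over the 11 classes found at both ages were most like those of a member were ranked by the lower of the E18.5 and P3 Pearson correlations of log2(CPM + 10), among 13634 genes. The 11 points of a correlation share a library and differ in depth, so these values are a description. For Erbb4 the first 3 were Lama1 (0.98 and 0.97), Sim1 (0.92 and 0.95) and Mapk4 (0.93 and 0.92). For Nrg3 they were Kcnh5 (0.96 and 0.97) and the overlapping Nrg3os (0.98 and 0.96) and Gm20642 (0.96 and 0.94). Egfr was most like Egfros (0.97 and 0.89), which also overlaps it, followed by 1700061H18Rik (0.87 and 0.87) and Arhgap42 (0.86 and 0.83). Nrg1 was most like Phyhipl, Dnah12 and Lzts3. Egf was most like Scrn1, Lpin2 and Mgat5, and Hbegf most like Xpnpep2, Abcd4 and Oxr1. Erbb3 was most like Cyb561 and Hook2, and Erbb2 most like Fa2h, Il17rc and Dnaja2. The correlation of a member with itself between the libraries was highest for Nrg1 at 0.95 and Egfr at 0.92, 0.89 for Erbb3 and Erbb4, and lowest for Erbb2 at 0.50 and Nrg3 at 0.57.

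Of the other 54 genes on the pathway list, 50 reached 1 CPM and 5 of these differed by 2-fold between the libraries, 3 higher at P3 and 2 higher at E18.5, beside 4.80% and 9.93% of all genes. Higher at P3 were the immediate early genes Egr1 (2.18 times) and Fos (2.22 times) and the magnesium channel gene Trpm6 (2.05 times). Higher at E18.5 were Hras, with a ratio of 0.42, and the transcription factor gene Etv4, with 0.47. With the members included, none of the 8 tested ligands, 4 receptors, 5 shedding genes or 8 receptor inhibitor genes differed by 2-fold. The median log2 ratio was 0.05 over the list without the members, beside −0.12 over all genes. It was 0.41 over the ligands and 0.67 over the receptors. These ligands include the members Egf, Hbegf, Nrg1 and Nrg3, and the 4 receptors are all members, so these 2 medians largely repeat the members' own ratios. A leading class at least 2 times the next was found for 8 of 49 of these other genes at E18.5 and 8 of 50 at P3, beside 24.5% and 23.7% of all genes.

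Trpm6 was led by distal tubule in both libraries, at 531 and 478 CPM. The inhibitor gene Lrig3 was led by nephron progenitors at E18.5 (273 CPM) and early nephrons at P3 (241 CPM), and the rhomboid protease gene Rhbdl2 by urothelium (97.6 and 90.2 CPM). At P3 Etv4 was led by early nephrons (134 CPM), Rhbdf2 by podocytes (35.3 CPM), and the adaptor gene Grb2 and the phosphatase gene Dusp6 by leukocytes (294 and 55.2 CPM). At E18.5 Rhbdf1 and Egr1 were led by glia-like nuclei and Fos by urothelium, each from at most 5 UMIs. Among the other ligands, Btc was highest in ureteric epithelium at E18.5, at 70.1 CPM or 2.91 times (1.60–5.89) the distal tubule, and stood at 66.6 CPM in distal tubule and 66.1 CPM in ureteric epithelium at P3. Tgfa had 16.1 CPM over all nuclei of either library, with 83.9 CPM in early nephrons and 68.8 CPM in urothelium at P3. Nrg2 was highest in interstitium at P3, at 60.1 CPM, and at E18.5 had 48.1 CPM from 6 UMIs in neuron-like nuclei, 34.4 CPM in nephron progenitors and 26.8 CPM in interstitium. Areg, Epgn and Ereg had at most 17 UMIs in a library, and 7 of those of Areg put urothelium first at P3, at 10.7 CPM. Nrg4 was led by urothelium at E18.5, at 13.9 CPM from 4 UMIs.

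The genes lie, in the coordinates of GRCm38, on chromosomes 11 (Erbb2, 98412470 to 98437716, and Egfr, 16752203 to 16918158, both on the plus strand), 10 (Erbb3, 128567523 to 128589652), 1 (Erbb4, 68032186 to 69108059), 8 (Nrg1, 31814551 to 32884029), 14 (Nrg3, 38368952 to 39473088), 3 (Egf, 129677565 to 129755316) and 18 (Hbegf, 36504927 to 36515805), the latter 6 on the minus strand. Counts are per gene, so that isoforms and exonic or intronic reads are not separated.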

How the data were processed

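Kidneys were pooled and nuclei were sequenced with the 3′ kit of 10x Genomics in 1 library per age. The authors deposited raw UMI counts per gene and barcode, made with Cell Ranger and not normalized. The matrix headers give release 7.0.0 for E18.5 and 5.0.1 for P3, whereas the submitters' processing notes give 5.0.1 and mm10 for both. Whether introns or strand were used is not given in the sources used here. Of 32285 gene identifiers, 32235 were found in GENCODE M21, which gave coordinates and introns.

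Barcodes beyond 3 median absolute deviations of log UMIs, log genes or mitochondrial share were removed (112 for UMIs or genes and 218 for mitochondria at E18.5, 451 for mitochondria at P3). The remaining nuclei held 77321253 and 70055219 UMIs. Size factors and variable genes came from scran 1.30.0 in R 4.3.3, principal components from scater 1.30.1 and Walktrap clusters on a graph of 10 neighbours from bluster 1.12.0 and igraph 2.1.4, with the 62 pathway genes left out. A marker was raised at 10 UMIs and 2 times the other nuclei, after 10 CPM were added on either side. Rules that left clusters unnamed where at least 50% of nuclei were called doublets, or where fewer than 4 markers were raised and none was among the 10 leading genes, were chosen after the clusters were seen. Scrublet (scanpy 1.11.5, expected rate 0.1) marked doublets. Python 3.11.15 with numpy 2.4.6, scipy 1.17.1, pandas 2.3.3 and matplotlib 3.10.9 was used otherwise.

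The members, the pathway and marker lists and the alternatives were chosen with earlier results of these data known. Named are the members, other ligands, pathway genes led 2-fold by a class or 2-fold apart between ages, the 3 genes most like each member (1 of these genes is not reported here), markers and leading genes. Thinning to 1000 UMIs left out 286 and 930 nuclei. Intervals were tested on simulated counts. No test, paired or between conditions, is possible with 1 library per age, and 20 alternative settings were tried.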

Additional observations from a re-analysis of the deposited data

Results flagged for a closer look

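The highest E18.5 level of Erbb2 was in a cluster that no class comparison used. This unnamed cluster of 2898 nuclei, led by Camk1d, Igf2 and Gm48099, had 32.2 CPM [26.9–38.3]. That is 1.03 times (0.52–2.29) the urothelium-like cluster, so it was not higher beyond counting error, and the level over all E18.5 nuclei was 18.3 CPM. The cluster had a median of 1257 UMIs per nucleus, against 3132.5 in the library, 4 raised hemoglobin genes, and ribosomal protein genes among its leading genes. The part of these in the level was not tested. No cluster of P3 was matched to it.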

How the results depend on the processing

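Values rest on 1 library per age, so intervals cover counting error and not differences between mice or preparations. No paired analysis was possible because the labels carry no replicate numbers and there is 1 library per age. Members led by 1 class numbered 2 instead of 4 at E18.5 under Leiden clustering, and at P3 2 instead of 1 with 20 neighbours and 4 with a limit of 1.5 times. Members past 2-fold between the ages numbered 1 instead of 0 when classes were weighted equally, which was Egf at a log2 ratio of 1.08, and 6 past 1.5-fold. The shares of all genes given above hold for the main settings only. These counts therefore have no background beside them and say nothing about the members as a set. The leading over next log2 ratio turned to −0.51 for Egfr at E18.5 with markers raised at 3 times and to −0.060 for Erbb2 at P3 after thinning. The log2 ratio of P3 to E18.5 of Nrg3 turned to −1.08 in distal tubule and −0.28 in loop with 20 neighbours, and to −2.48 in loop and 0.34 in podocytes under Leiden clustering, where the main value in podocytes was −1.48. That of Egfr in podocytes turned to −0.11 when doublet-rich clusters were named. The cause was not tested. Of the other values by gene, 304 kept within counting error and direction and 96 moved further without turning. Leiden clustering formed no value for 7 leading and 4 class ratios, and 20 neighbours for 5 leading ratios and 1 class ratio. Settings with doublet-rich clusters, small classes, clusters without Slc12a1 among their leading genes or single nuclei left out were chosen after seeing the data.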
